A study of Danio rerio with 54 samples.

Results

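The 9 gene symbols CFAP70, wdpcp, dnajb9b, dhx40, gpr19, mchr1b, cacna1ha, dgkb and pik3c2b were followed across nfe2 knockout and wildtype zebrafish embryos. They were picked on the measured difference between knockout and wildtype embryos kept in water, with no numerical threshold, so the water values are a description here and carry no test. The symbols stand for 11 of the 31953 gene identifiers in the table, because dnajb9b and cacna1ha each name 2 identifiers. All 11 were kept, and dnajb9b and cacna1ha without an identifier mean ENSDARG00000016886 and ENSDARG00000097913, which hold the larger water differences.

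RNA was sequenced from 54 libraries, each from a pool of 30 whole embryos, in 18 groups of 3 pools. Nfe2 knockout embryos and AB wildtype embryos were exposed to 20 µM diquat or to 1 mM tert-butyl hydroperoxide (tBOOH), or kept in water, for 4 h from 2, 48 or 96 hours post-fertilization (hpf). They were frozen after a further 4 h of recovery, so the stage names give the start of exposure. The knockout line descends from AB/TL hybrid embryos injected with mRNA for a pair of TALENs, designed nucleases, and carries 1 germline deletion of 8 bases in exon 3, so it is a single mutant line. The labels place it on the AB background, and what the deletion changed and what the 2 lines carried apart from it cannot be told apart. Diquat, a herbicide, passes electrons to oxygen in a repeating cycle, and tBOOH is itself a peroxide, so both expose cells to oxidants.

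The sequences that define the knockout line were the TALEN binding sites and the bases lost there, given by the submitters and written 5′ to 3′. Capitals in the second site mark 5 bases that it shares with the deleted stretch.
first TALEN site: tcacccacctcttatgag
second TALEN site: CATGActacacgtggtca
deleted bases: GCACATGA

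Nfe2 belongs to the cap'n'collar family of transcription factors, which pair with small Maf proteins and bind antioxidant response elements, and its mammalian counterpart is best known from blood platelets. A frameshift deletion need not take away the transcript, so the nfe2 level does not check the genotype. In the 2 hpf series nfe2 had 8.17 to 34.4 normalised counts in the 9 knockout pools (median 18), against 1.60 to 19.9 in the 9 wildtype pools (median 7.73). These ranges over all treatments overlapped, as did the water pools alone. Within each oxidant the knockout pools lay above the wildtype pools, 3.68-fold by means under diquat and 2.24-fold under tBOOH. In both strains nfe2 was at or below 4.39 in the 48 and 96 hpf series. Values are counts divided by a size factor for each library, so they compare libraries within a gene and are not scaled to gene length.

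The genes followed here have known roles in several compartments of the cell. CFAP70 is a protein of the axoneme, the microtubule core of motile cilia, and wdpcp is a planar cell polarity effector needed to build cilia. Dnajb9 is a cochaperone of the endoplasmic reticulum that works with the chaperone BiP and is induced by unfolded protein. Dhx40 encodes a DEAH-box protein of the RNA helicase family. Gpr19 is an orphan G-protein coupled receptor, mchr1b a receptor for melanin-concentrating hormone, and cacna1ha the pore subunit of a low-voltage-activated (T-type) calcium channel. Dgkb phosphorylates diacylglycerol and pik3c2b is a class II phosphoinositide 3-kinase, so both act on lipid messengers.

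Libraries held 527073 to 1044504 reads in genes, so a normalised count of 1 stands for about 1 read. In the 48 hpf series, 4 of the 9 knockout libraries stood apart: water replicates 1 and 3, diquat replicate 2 and tBOOH replicate 1. Summed skeletal muscle genes came to 10249 to 13645 in these 4, 20260.0 to 21328 in the other 5 knockout libraries and 21224 to 25660.4 in wildtype. Summed neuronal genes came to 2753 to 3407 in the 4, 1671 to 2112 in the other 5 and 1495 to 1964 in wildtype. These 4 were thus low in muscle and high in neuronal RNA. Liver and exocrine pancreas genes came to 70.1 to 96.6 in the 4, 193 to 2109 in the other 5 and 139 to 540.1 in wildtype. Gastrula and early segmentation genes came to 109 to 127 in the 4, 74.7 to 106 in the other 5 and 70.4 to 94.3 in wildtype. Sums of maternal transcripts overlapped. At 96 hpf the strains themselves did not overlap in the liver and pancreas, neuronal and muscle sums. Liver and pancreas genes came to 502 to 1791 in knockout and 2415 to 3749 in wildtype pools. Neuronal genes came to 2835 to 3740.3 in knockout and 1597 to 2253 in wildtype pools. Muscle genes came to 25972 to 31398 in knockout and 18601 to 23244 in wildtype pools. Of 23 tested liver and pancreas genes 17 were lower in knockout under diquat and 15 under tBOOH at 96 hpf, and of 21 neuronal genes 6 and 14 were higher. These are 73.9% and 65.2% of the liver and pancreas genes and 28.6% and 66.7% of the neuronal genes. Of all genes 14.1% passed the same test under diquat and 20.7% under tBOOH. Of 24 tested muscle genes 5 were higher and 1 lower in knockout under diquat (25%). Under tBOOH 3 were higher and 1 lower (16.7%). The lower one was myhz2 under both (-0.74 ± 0.17 and -0.92 ± 0.17), so the muscle genes did not all go with their sum. At 2 hpf maternal transcripts summed to 84.7 to 128 in knockout and 85.8 to 118 in wildtype pools, and gastrula genes to 522 to 722 in knockout and 575 to 721 in wildtype pools, so both overlapped. Neuronal genes summed to 92.9 to 152 in knockout and 56.0 to 93.1 in wildtype pools of 2 hpf, ranges that only just met, and muscle genes to 53.3 to 161 in knockout (median 75.4) and 40.7 to 92.7 in wildtype pools (median 47.5). In whole embryos, fewer cells of a type and less RNA per cell cannot be told apart, and the part of these shifts in the differences below was not tested.

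Under the oxidants, whose values did not choose the genes, most of the set differed between the strains in the 2 and 96 hpf series, and fewer in the 48 hpf series. Genes that reached 10 normalised counts in 3 or more libraries of a stage were tested with limma on log2(value + 1), with 3 pools a group. A gene was called where its Benjamini-Hochberg adjusted p over all tested genes was under 0.05. In the 2 hpf series 9 of the 11 identifiers were called under diquat, 6 of them higher and 3 lower, where 45.0% of all 7783 tested genes were called, 23.8% higher and 21.2% lower. Under tBOOH 7 were higher and 2 lower at 2 hpf, where 14.2% of genes were called, 7.79% higher and 6.37% lower. At 48 hpf 4 were higher and 1 lower under diquat, against 1.13% of all 9725 tested genes called (0.473% higher and 0.658% lower). Under tBOOH 4 were higher and none lower at 48 hpf, against 0.967% of genes called (0.350% higher and 0.617% lower). At 96 hpf 6 were higher and 2 lower under each oxidant. Of all 11436 tested genes 14.1% were called under diquat (6.28% higher and 7.81% lower) and 20.7% under tBOOH (10% higher and 10.7% lower). Only 9 or 10 of the 11 passed the filter at a stage, and the untested ones were wdpcp at 2 hpf, dgkb and cacna1ha ENSDARG00000060496 at 48 hpf and dgkb at 96 hpf. A gene that passed only through the strain where it is high had to differ, so these counts describe the set. CFAP70, gpr19 and dhx40 passed so at every stage, and dnajb9b at 48 and 96 hpf. At 2 hpf dgkb, pik3c2b and cacna1ha ENSDARG00000060496 passed so too. Adjusted p-values printed below for these describe the genes and give no separate support. In water itself 31.3%, 2.49% and 23.0% of tested genes were called at 2, 48 and 96 hpf, which is given as background only.

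The strain difference was called at every stage and under both oxidants for 4 genes: CFAP70, dnajb9b, dhx40 and gpr19 were higher in knockout pools in all 6 comparisons. The share of all genes called in all 6, or without overlap between the strains, was not counted. Such statements here and below therefore describe the set only. Cacna1ha was higher in 4 of the 6 and mchr1b in 3, with mchr1b lower in 1. Wdpcp was lower in 3, and dgkb and pik3c2b in 2, which were both of the 2 hpf series. Of the second identifiers, dnajb9b ENSDARG00000097601 was lower in 2 comparisons, unlike the first. Cacna1ha ENSDARG00000060496 was higher in 2, both of the 2 hpf series. It was not called at 96 hpf and not tested at 48 hpf. In water, CFAP70 held the largest difference of all tested genes at each of the 3 stages, dnajb9b ranked 7, 2 and 5 by size at 2, 48 and 96 hpf, and dgkb ranked 2 at 2 hpf. Other water differences depended on the stage. Mchr1b ranked 5057 of 7783 at 2 hpf, 784 of 9725 at 48 hpf and 1009 of 11436 at 96 hpf. Dnajb9b ENSDARG00000097601 ranked 5302, 381 and 932 at these stages, and pik3c2b 31, 1628 and 4829. Cacna1ha ENSDARG00000060496 ranked 571 at 2 hpf and 9677 at 96 hpf.

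The water values that chose the set are given here as ranges over 3 pools a group, in the order 2, 48 and 96 hpf. CFAP70 had 192 to 346, 149.6 to 261 and 251 to 384 in knockout pools, against 0, 0 to 0.829 and 0.860 to 2.14 in wildtype pools. Dnajb9b had 484 to 809, 198 to 262 and 120.5 to 169 in knockout pools, against 8.87 to 13.8, 2.93 to 4.97 and 1.07 to 6.29 in wildtype pools. Dhx40 had 122 to 157, 57.7 to 88.6 and 87.0 to 89.8 in knockout pools, against 1.73 to 7.26, 4.97 to 8.80 and 1.72 to 8.38 in wildtype pools. In these 3 genes each knockout range lay above the wildtype range of its stage. Gpr19 had 57.8 to 67.6, 12.2 to 37.0 and 24.0 to 36.8 in knockout pools, against 0, 0 to 2.49 and 0 to 2.14 in wildtype pools. Cacna1ha had 195 to 256, 82.9 to 102 and 193 to 221 in knockout pools, against 19.4 to 40.6, 19.9 to 36.7 and 88.6 to 116 in wildtype pools. Both were likewise higher in knockout at each stage, cacna1ha by the least at 96 hpf. Mchr1b had 217 to 291, 178 to 264 and 223 to 273 in knockout pools, against 179.9 to 224, 87.0 to 138 and 73.3 to 106 in wildtype pools. Pik3c2b had 0.918 to 6.33, 8.76 to 14.4 and 6.59 to 14.5 in knockout pools, against 45.8 to 67.4, 13.5 to 23.5 and 9.64 to 21 in wildtype pools. Dgkb had 0, 0 to 0.974 and 2.09 to 3.35 in knockout pools, against 141 to 245, 0 and 0.860 to 2.1 in wildtype pools. Mchr1b overlapped between the strains at 2 hpf, pik3c2b at 48 and 96 hpf, and dgkb was near 0 in both strains after 2 hpf. Wdpcp had 0 to 0.911, 1.95 to 61.0 and 19.8 to 36.5 in knockout pools, against 0 to 2.30, 167 to 258 and 259.6 to 295 in wildtype pools. The second dnajb9b identifier had 28.9 to 42.2, 14.6 to 57.7 and 15.4 to 36.8 in knockout pools, against 39.7 to 44.4, 64.8 to 79.2 and 63.2 to 77.5 in wildtype pools, and the second cacna1ha identifier 2.75 to 12.7, 4.88 to 8.80 and 16.5 to 24.5 in knockout pools, against 0.807 to 4.32, 1.66 to 5.89 and 16.1 to 21 in wildtype pools.

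CFAP70 (ENSDARG00000058508) was close to absent from wildtype embryos and well expressed in knockout embryos. In the 2 hpf series it had 370.0, 261 and 238 in knockout pools, against 0, 0.80 and 0 in wildtype pools, under diquat, and 144, 273 and 171 in knockout pools, against 0, 2.61 and 0.805 in wildtype pools, under tBOOH. At 48 hpf the values were 113, 246 and 191 in knockout pools, against 0, 0 and 1.96 in wildtype pools, under diquat, and 223, 83.5 and 147 in knockout pools, against 0, 0 and 0 in wildtype pools, under tBOOH. No knockout library came near a wildtype one. In the 96 hpf series CFAP70 had 331, 331 and 343 in knockout pools, against 0, 0 and 1.04 in wildtype pools, under diquat, and 262, 261 and 205 in knockout pools, against 2.2, 3.27 and 1.06 in wildtype pools, under tBOOH. Over all 27 knockout libraries, water included, it ranged from 83.5 to 384 (median 246, 6462 reads), against 0 to 3.27 in the 27 wildtype libraries, which held 19 reads between them and none in 15. The wildtype tBOOH group of 48 hpf had no read, which with a floor of 3 reads over the group makes CFAP70 at least 172-fold higher in knockout, and at 96 hpf under tBOOH, with 6 wildtype reads, it was 111-fold higher. All 6 calls had an adjusted p of 2.48e-09 or less, and leaving out the 4 libraries that stood apart kept both 48 hpf calls (adjusted p = 6.88e-09 and 4.58e-09). CFAP70 passed the filter only through knockout libraries, so these p-values describe it and give no separate support.

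**Figure D1:**
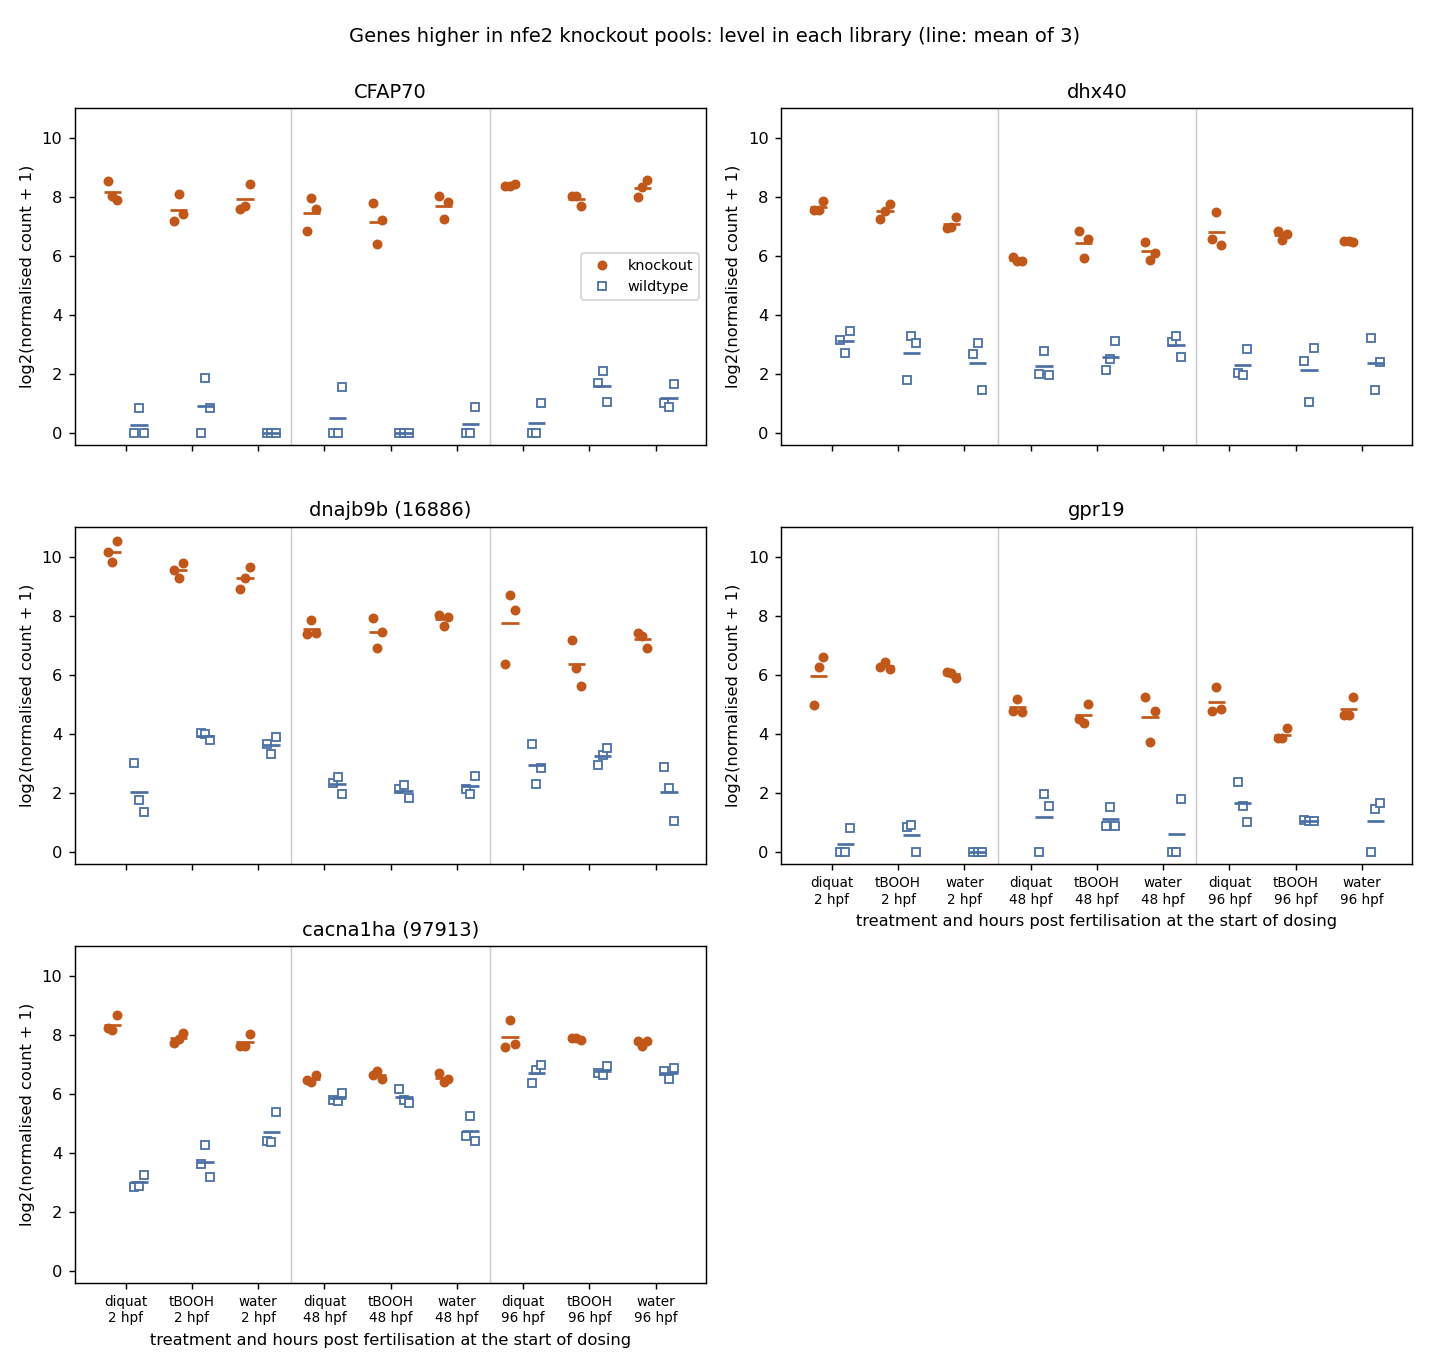
Normalised counts in each library (y axis, log2 of value + 1) for 5 identifiers by stage and treatment (x axis), with knockout libraries left of wildtype libraries and a bar at each group mean of 3 pools. CFAP70, dnajb9b, dhx40 and gpr19 show no overlap between the strains in any of the 9 pairs of groups, which include the water groups that chose the set. CFAP70 lies at 83.5 to 384 in knockout and 0 to 3.27 in wildtype libraries.

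Wdpcp (ENSDARG00000074590) was lower in knockout embryos once it was expressed. In the 2 hpf series it stood at 0 to 2.46 in both strains and was not tested. In the 48 hpf series it had 34.0, 10.6 and 40.6 in knockout pools, against 248, 227 and 238 in wildtype pools, under diquat, and 9.09, 37.4 and 37.9 in knockout pools, against 188, 191 and 198 in wildtype pools, under tBOOH. In water the knockout pools spread widest, with 1.95, 61.0 and 5.60, against 168, 258 and 167 in wildtype pools. The strains did not overlap, but the 4 lowest knockout values, 1.95, 5.60, 9.09 and 10.6, were those of the 4 libraries that stood apart. The log2 difference at 48 hpf was -3.21 ± 0.72, adjusted p = 0.0292, under diquat and -2.97 ± 0.72, adjusted p = 0.0521, under tBOOH, so the tBOOH difference missed the threshold. Without the 4 libraries, a choice made after seeing the data, it was -2.64 under diquat and -2.32 under tBOOH, a smaller size in both. That fit left water replicate 2 alone in its knockout group. Its p-values for wdpcp are not given, because much of the knockout spread lay with these 4 libraries. In the other 5 knockout libraries the summed liver and exocrine pancreas genes ran from 193 to 2109, against 139 to 540.1 in wildtype. With all libraries none of the 9 tested genes of that list was called under either oxidant. Of all genes 1.13% were called under diquat and 0.967% under tBOOH. The part of these sums in the wdpcp values was not tested. Dropping single libraries ended the diquat call without knockout diquat replicate 1 or 2 (adjusted p = 0.0543 and 0.198) and without wildtype diquat replicate 1, 2 or 3 (adjusted p = 0.113, 0.105 and 0.109). The tBOOH difference was called with a pseudocount of 5 (0.0114), with no filter (0.0374), with the compared groups alone (0.0212) and by edgeR (0.0147).

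In the 96 hpf series wdpcp was lower in all knockout pools. Under diquat it had 56.8, 80.5 and 27.9 in knockout pools, against 318, 347 and 283 in wildtype pools, a log2 difference of -2.62 ± 0.25, adjusted p = 2.1e-08. Under tBOOH it had 43.9, 41.9 and 43.2 in knockout pools, against 294, 323 and 285 in wildtype pools, a difference of -2.78 ± 0.25, adjusted p = 6.01e-09. Knockout embryos thus held about 5.74 and 6.99 times less wdpcp RNA than wildtype embryos under diquat and tBOOH, with no overlap between the strains.

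**Figure D2:**
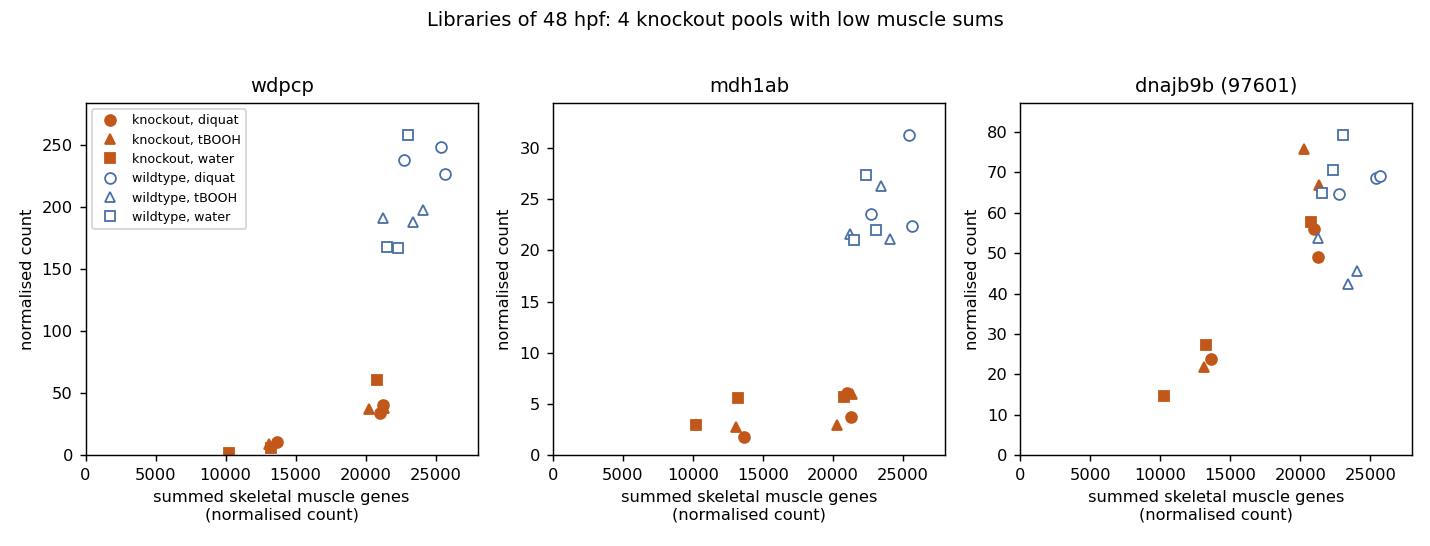
Normalised counts of wdpcp, mdh1ab and the second dnajb9b identifier (y axis, 1 panel each) against summed skeletal muscle genes (x axis) in the 18 libraries of the 48 hpf series, knockout and wildtype in separate colours. The 4 knockout libraries with muscle sums of 10249 to 13645 hold the 4 lowest wdpcp values, 1.95 to 10.6, and all wildtype libraries lie at 167 or above.

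For each gene of the set, relatives by function were counted in the same tests. Of the 71 identifiers of a motile cilium list, 11 were tested at 2 hpf, 6 of which were higher and none lower under diquat (median log2 difference 0.73, against 0.01 over all genes) and 2 higher under tBOOH. These are 54.5% and 18.2% of the list, where 45.0% and 14.2% of all genes were called. Under diquat CFAP99 (1.33 ± 0.16), the axonemal dynein gene dnah7 (1.41 ± 0.18) and cfap43 (1.09 ± 0.18) led them. None of 9 was called at 48 hpf under either oxidant. Of 16 at 96 hpf 5 were higher under diquat (31.2%, against 14.1% of all genes), and 4 higher and 2 lower under tBOOH (37.5%, against 20.7%). At 96 hpf under tBOOH the radial spoke gene rsph4a was higher in knockout (2.27 ± 0.60) and the dynein gene dnah12 lower (-1.71 ± 0.50). These sizes are far below the CFAP70 difference, whose log2 values of 6.31 to 8.05 rest on wildtype groups with few or no reads. Of planar polarity effector and Bardet-Biedl genes, the closest relatives of wdpcp by function, 2 of 6 tested were higher and 1 lower at 2 hpf under diquat (50%, against 45.0% of all genes). The transition zone genes cc2d2a (1.36 ± 0.28) and cep290 (0.87 ± 0.18) were higher in knockout and the chaperonin-like bbs12 lower (-1.50 ± 0.42). Lztfl1 was higher in knockout under tBOOH at 2 hpf (0.85 ± 0.29), or 16.7% of the list against 14.2% of all genes. None of 10 was called at 48 hpf. Of 11 at 96 hpf rsg1 was higher in knockout (1.37 ± 0.46) and bbs12 lower (-0.97 ± 0.31) under diquat, or 18.2% against 14.1%. None was called under tBOOH.

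Dnajb9b (ENSDARG00000016886) was high in knockout embryos and low in wildtype embryos throughout. At 2 hpf under diquat it had 1133, 895 and 1471 in knockout pools, against 7.09, 2.40 and 1.55 in wildtype pools, and was 317-fold higher in knockout (log2 difference 8.12 ± 0.28, adjusted p = 2.73e-18). Under tBOOH it had 752, 626 and 878 in knockout pools, against 15.5, 14.8 and 12.9 in wildtype pools, 52.3-fold higher (5.60 ± 0.28, adjusted p = 1.5e-14). In water it had 484, 619.7 and 809 in knockout pools, against 11.5, 8.87 and 13.8 in wildtype pools. Knockout pools were thus at 484 or above and wildtype pools at or under 15.5 normalised counts in every treatment of that series. At 48 hpf the values were 165, 232 and 171 in knockout pools, against 4.04, 4.86 and 2.94 in wildtype pools, under diquat, and 245, 119.9 and 173 in knockout pools, against 3.39, 3.76 and 2.54 in wildtype pools, under tBOOH, which is 48.0 and 55.5 times the wildtype mean. In the 96 hpf series it had 81.1, 418 and 290.5 in knockout pools, against 11.5, 3.87 and 6.23 in wildtype pools, under diquat, and 144, 74.8 and 48.7 in knockout pools, against 6.61, 8.73 and 10.6 in wildtype pools, under tBOOH, or 36.6 and 10.3 times. The strains did not overlap at any stage, though knockout replicates at 96 hpf under diquat spread over a range of 81.1 to 418.

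The second dnajb9b identifier, ENSDARG00000097601, did not share this pattern. In the 2 hpf series it had 39.7, 41.5 and 28.9 in knockout pools, against 59.3, 36.0 and 31.7 in wildtype pools, under diquat, with no call under either oxidant (log2 difference -0.17 ± 0.23 and -0.02 ± 0.23). In the 48 hpf series its knockout values of 14.6, 27.2, 23.9 and 21.8 in the 4 libraries that stood apart were the lowest, and neither oxidant gave a call with or without them. At 96 hpf it was lower in knockout, with 34.5, 43.8 and 38.8 in knockout pools, against 76.3, 99.7 and 51.9 in wildtype pools, under diquat (-0.90 ± 0.25, adjusted p = 0.0129), and 110.4, 120.1 and 89.7 in knockout pools, against 192, 161 and 197 in wildtype pools, under tBOOH (-0.78 ± 0.25, adjusted p = 0.0237). Here the groups did not overlap under either oxidant. The diquat call was lost without wildtype diquat replicate 2 (adjusted p = 0.117) and with the compared groups alone (0.0601), and the tBOOH call without knockout tBOOH replicate 3 (0.107) or wildtype tBOOH replicate 1 or 3 (0.0755 and 0.0845). The paralog dnajb9a stayed at or below 4.14 in all 54 libraries.

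Genes that work beside Dnajb9 in the endoplasmic reticulum were called about as often as all genes at 2 hpf. Of 31 tested there, 8 were higher and 6 lower under diquat, or 45.2% against 45.0% of all genes, and 5 higher and none lower under tBOOH, or 16.1% against 14.2%. Derl2, part of the machinery that moves misfolded protein out of the organelle, was higher under both (3.34 ± 0.45 and 2.31 ± 0.45), as was the calcium-binding chaperone gene calr (1.88 ± 0.28 and 1.39 ± 0.28), with calr3b (1.65 ± 0.26) under diquat and calr3a (1.36 ± 0.22) under tBOOH. Of 36 tested later, only ern1, which encodes the stress sensor IRE1, was called at 48 hpf: it was lower under diquat (-1.83 ± 0.43) and under tBOOH (-1.97 ± 0.43), and so it was without the 4 libraries (-1.80 ± 0.35 and -2.06 ± 0.35). The 48 hpf count with all libraries is 2.78% of the list under each oxidant, against 1.13% and 0.967% of all genes under diquat and tBOOH. Of the 36 at 96 hpf 1 was higher and 3 lower under diquat (11.1%, against 14.1% of all genes). Under tBOOH 2 were higher and 3 lower (13.9%, against 20.7%). Lower under both were ern1 (-1.41 ± 0.41 and -1.89 ± 0.41) and the chaperone gene hyou1 (-0.73 ± 0.23 and -0.85 ± 0.23). Edem1 (-1.1 ± 0.26) was lower under diquat and pdia4 (-1.09 ± 0.24) under tBOOH.

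Dhx40 (ENSDARG00000041586) was higher in knockout at each stage, by the least at 48 hpf. Under diquat it had 186, 188 and 233 in knockout pools, against 7.97, 5.60 and 10.1 in wildtype pools, at 2 hpf; 62.0, 55.8 and 55.7 in knockout pools, against 3.03, 5.84 and 2.94 in wildtype pools, at 48 hpf; and 94.3, 179 and 81.6 in knockout pools, against 3.14, 2.90 and 6.23 in wildtype pools, at 96 hpf. Under tBOOH it had 152, 183 and 214 in knockout pools, against 2.44, 8.70 and 7.24 in wildtype pools, at 2 hpf; 114, 60 and 94.7 in knockout pools, against 3.39, 4.70 and 7.61 in wildtype pools, at 48 hpf; and 115, 92.9 and 107 in knockout pools, against 4.41, 1.09 and 6.36 in wildtype pools, at 96 hpf. Knockout means were 25.6, 14.7 and 28.9 times the wildtype means at 2, 48 and 96 hpf under diquat and 29.8, 17.1 and 26.6 times under tBOOH, with no overlap in any pair of groups. The log2 differences lay between 3.62 ± 0.31 and 4.81 ± 0.33, and without the 4 libraries the 48 hpf values were 3.65 and 3.67. Of 12 other DExH-box helicase genes tested at 2 hpf, 3 were higher and 6 lower under diquat, among them dhx32a (1.48 ± 0.19), skiv2l2 (1.07 ± 0.22) and dhx9 (-1.35 ± 0.19), and 1, skiv2l2, was higher under tBOOH (0.73 ± 0.22). The 2 hpf counts are 75% and 8.33% of the helicase list under diquat and tBOOH, where 45.0% and 14.2% of all genes were called. Of 13 helicase genes, none was called at 48 hpf, and dhx32a was the single call at 96 hpf, higher under both oxidants (0.61 ± 0.19 and 0.66 ± 0.19). That is 7.69% of the list, against 14.1% and 20.7% of all genes.

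The receptor gene gpr19 (ENSDARG00000102226) was near 0 in wildtype embryos and present in knockout embryos in all 6 oxidant comparisons. At 2 hpf it had 30.4, 75.4 and 96.4 in knockout pools, against 0, 0 and 0.773 in wildtype pools, under diquat, and 76.3, 85.2 and 72.0 in knockout pools, against 0.814, 0.870 and 0 in wildtype pools, under tBOOH. At 48 hpf it had 26.2, 35.4 and 25.5 in knockout pools, against 0, 2.92 and 1.96 in wildtype pools, under diquat, and 21.8, 19.7 and 30.9 in knockout pools, against 0.848, 1.88 and 0.846 in wildtype pools, under tBOOH. At 96 hpf it had 26.4, 47.3 and 27.9 in knockout pools, against 4.18, 1.94 and 1.04 in wildtype pools, under diquat, and 13.6, 13.6 and 17.3 in knockout pools, against 1.1, 1.09 and 1.06 in wildtype pools, under tBOOH. The strains did not overlap at any stage, and knockout levels were highest in the 2 hpf series. With 4 or more wildtype reads in the group, knockout means were 17.9 and 20.2 times the wildtype means at 48 hpf and 14.2 times at 96 hpf under diquat. The least certain of the 6 calls was that of 48 hpf under tBOOH (adjusted p = 0.000918), and without the 4 libraries the adjusted p at 48 hpf was 0.00363 under diquat and 0.0023 under tBOOH. Gpr19 passed the filter only through knockout libraries, so these p-values are a description too.

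Mchr1b (ENSDARG00000022525) changed sides between the oxidants. At 2 hpf under diquat it was lower in knockout, with 181, 343 and 227 in knockout pools, against 513, 450.3 and 432 in wildtype pools (-0.94 ± 0.18, adjusted p = 0.000127). Under tBOOH it was higher in knockout, with 278, 327 and 346 in knockout pools, against 177, 198 and 209 in wildtype pools (0.70 ± 0.18, adjusted p = 0.00845). In water the values were 217, 291 and 227 in knockout pools, against 182, 179.9 and 224 in wildtype pools. The wildtype diquat pools lay above all other pools of the stage. At 48 hpf it was called under neither oxidant, with 216, 193 and 224 in knockout pools, against 286, 185 and 315 in wildtype pools, under diquat, and 255, 183 and 211 in knockout pools, against 242, 207 and 183 in wildtype pools, under tBOOH. At 96 hpf it was higher in knockout under both, with 219.9, 320.3 and 199 in knockout pools, against 151, 106 and 102 in wildtype pools, under diquat (1.03 ± 0.21, adjusted p = 0.000886), and 249.6, 202 and 169.7 in knockout pools, against 112, 86.2 and 108 in wildtype pools, under tBOOH (1.00 ± 0.21, adjusted p = 0.000934). Its paralog mchr1a had no read in any of the 54 libraries. Of 4 genes of the melanin-concentrating hormone system and orphan receptors tested at 2 hpf, the hormone gene pmch (1.64 ± 0.40) and gpr173 (1.2 ± 0.45) were higher under diquat, or 50% against 45.0% of all genes. None was called under tBOOH at 2 hpf or at 48 hpf. Of 5 at 96 hpf the orexin receptor gene hcrtr2 was higher under both oxidants (2.79 ± 0.50 and 1.43 ± 0.50) and pomca under diquat (0.55 ± 0.17). These are 40% and 20% under diquat and tBOOH, against 14.1% and 20.7% of all genes.

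Cacna1ha (ENSDARG00000097913) showed its large difference in the 2 hpf series. There it had 297, 282 and 404 in knockout pools, against 6.20, 6.40 and 8.51 in wildtype pools, under diquat, 46.5-fold higher in knockout (5.35 ± 0.26, adjusted p = 3.22e-15), and 209, 231 and 266 in knockout pools, against 11.4, 18.3 and 8.05 in wildtype pools, under tBOOH, 18.7-fold higher (4.19 ± 0.26, adjusted p = 1.02e-12). At 48 hpf the values were 86.4, 83.3 and 97.3 in knockout pools, against 54.5, 52.5 and 64.7 in wildtype pools, under diquat, and 99.1, 108 and 88.7 in knockout pools, against 71.2, 53.6 and 49.9 in wildtype pools, under tBOOH. The groups did not overlap, but with log2 differences of 0.63 ± 0.21 and 0.76 ± 0.21 neither was called (adjusted p = 0.2 and 0.107). At 96 hpf it had 189, 362 and 203 in knockout pools, against 80.5, 111 and 124 in wildtype pools, under diquat (1.21 ± 0.21, adjusted p = 0.000182), and 233, 236 and 225 in knockout pools, against 103, 98.2 and 123 in wildtype pools, under tBOOH (1.1 ± 0.21, adjusted p = 0.000364). The second identifier, ENSDARG00000060496, was low at 2 hpf, with 8.17, 5.65 and 4.13 in knockout pools, against 0, 2.40 and 2.32 in wildtype pools, under diquat (1.60 ± 0.61, adjusted p = 0.0349), and 13.1, 7.37 and 8.0 in knockout pools, against 1.63, 0 and 1.61 in wildtype pools, under tBOOH (2.43 ± 0.61, adjusted p = 0.00714). Its diquat call was lost with no filter (0.0630), by edgeR (0.0662) and DESeq2 (0.0685), and without knockout diquat replicate 1 or 2 (0.114 and 0.0654) or wildtype diquat replicate 1 (0.217), and its tBOOH call without wildtype tBOOH replicate 2 (0.0512), each an adjusted p. It was not called at 96 hpf (0.39 ± 0.30 and 0.76 ± 0.30), and the paralog cacna1hb stayed at or below 3.13 in all 54 libraries.

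Among the other calcium channel subunit genes, 1 was tested at 2 hpf: cacna1aa, the pore subunit of the P/Q-type channel, was higher under diquat (2.03 ± 0.59). There 45.0% of all genes were called. Under tBOOH at 2 hpf cacna1aa was not called (0.88), where 14.2% of all genes were. None of 12 was called at 48 hpf. Of 24 tested at 96 hpf, 2 were higher under diquat, cacna1aa (1.02 ± 0.19) and cacna1ea (0.88 ± 0.28). Under tBOOH cacna1aa (0.68 ± 0.19) and cacng2a (1.00 ± 0.28) were higher and cacna2d1a was lower (-1.41 ± 0.40). The 96 hpf counts are 8.33% and 12.5% of the list under diquat and tBOOH, against 14.1% and 20.7% of all genes. At this stage the summed neuronal genes were also higher in knockout pools, at 2835 to 3740.3, against 1597 to 2253 in wildtype pools.

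The lipid kinase genes were lower in knockout embryos of the 2 hpf series. Dgkb (ENSDARG00000027724) had no read in any of the 9 knockout libraries, against 42.5, 32.0 and 41.8 in wildtype diquat pools, 137, 122 and 199.6 in wildtype tBOOH pools and 141, 164 and 245 in wildtype water pools. With a floor of 3 reads over the group it was at least 34.2-fold lower in knockout under diquat (adjusted p = 7.96e-13) and at least 169-fold lower under tBOOH (adjusted p = 2.85e-15). In the 48 hpf series neither strain exceeded 1.01, and in the 96 hpf series knockout pools reached 5.25 and wildtype pools 2.1, too low to be tested. Pik3c2b (ENSDARG00000086927) had 2.33, 3.77 and 1.38 in knockout pools, against 63.8, 78.4 and 62.7 in wildtype pools, under diquat (-4.36 ± 0.39, adjusted p = 2.29e-09), and 6.57, 2.46 and 2.29 in knockout pools, against 30.1, 32.2 and 24.1 in wildtype pools, under tBOOH (-2.75 ± 0.39, adjusted p = 1.3e-05). Knockout pools held 27.4 and 7.65 times less than wildtype pools under diquat and tBOOH, with no overlap. At 48 hpf it ranged over 6.98 to 15.9 in knockout and 11.8 to 23.5 in wildtype pools and at 96 hpf over 1.51 to 17.5 in knockout and 3.27 to 21 in wildtype pools, and it was called at neither stage. At 2 hpf dgkb and pik3c2b passed the filter only through wildtype libraries, so their p-values describe them and give no separate support.

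No other diacylglycerol kinase gene was expressed highly enough to be tested at 2 hpf, and none of 3 was called at 48 hpf. Of 6 at 96 hpf DGKK was higher under tBOOH (1.67 ± 0.30), and none was called under diquat. The tBOOH count is 16.7% of the list, against 20.7% of all genes. Of 9 other phosphoinositide 3-kinase genes and regulators tested at 2 hpf, the phosphatase genes inpp4b (1.06 ± 0.17) and ptena (0.71 ± 0.19) were higher and ptenb (-1.33 ± 0.28) lower under diquat, and inpp4b was higher under tBOOH (0.92 ± 0.17). The 2 hpf counts are 33.3% and 11.1% of the list under diquat and tBOOH, against 45.0% and 14.2% of all genes. None of 14 was called at 48 hpf, and of 16 at 96 hpf 1 was lower under each oxidant, the regulatory subunit gene pik3r3a under diquat (-1.43 ± 0.45) and the catalytic subunit gene pik3ca under tBOOH (-1.97 ± 0.62). That is 6.25% of the list, against 14.1% and 20.7% of all genes.

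**Figure D3:**
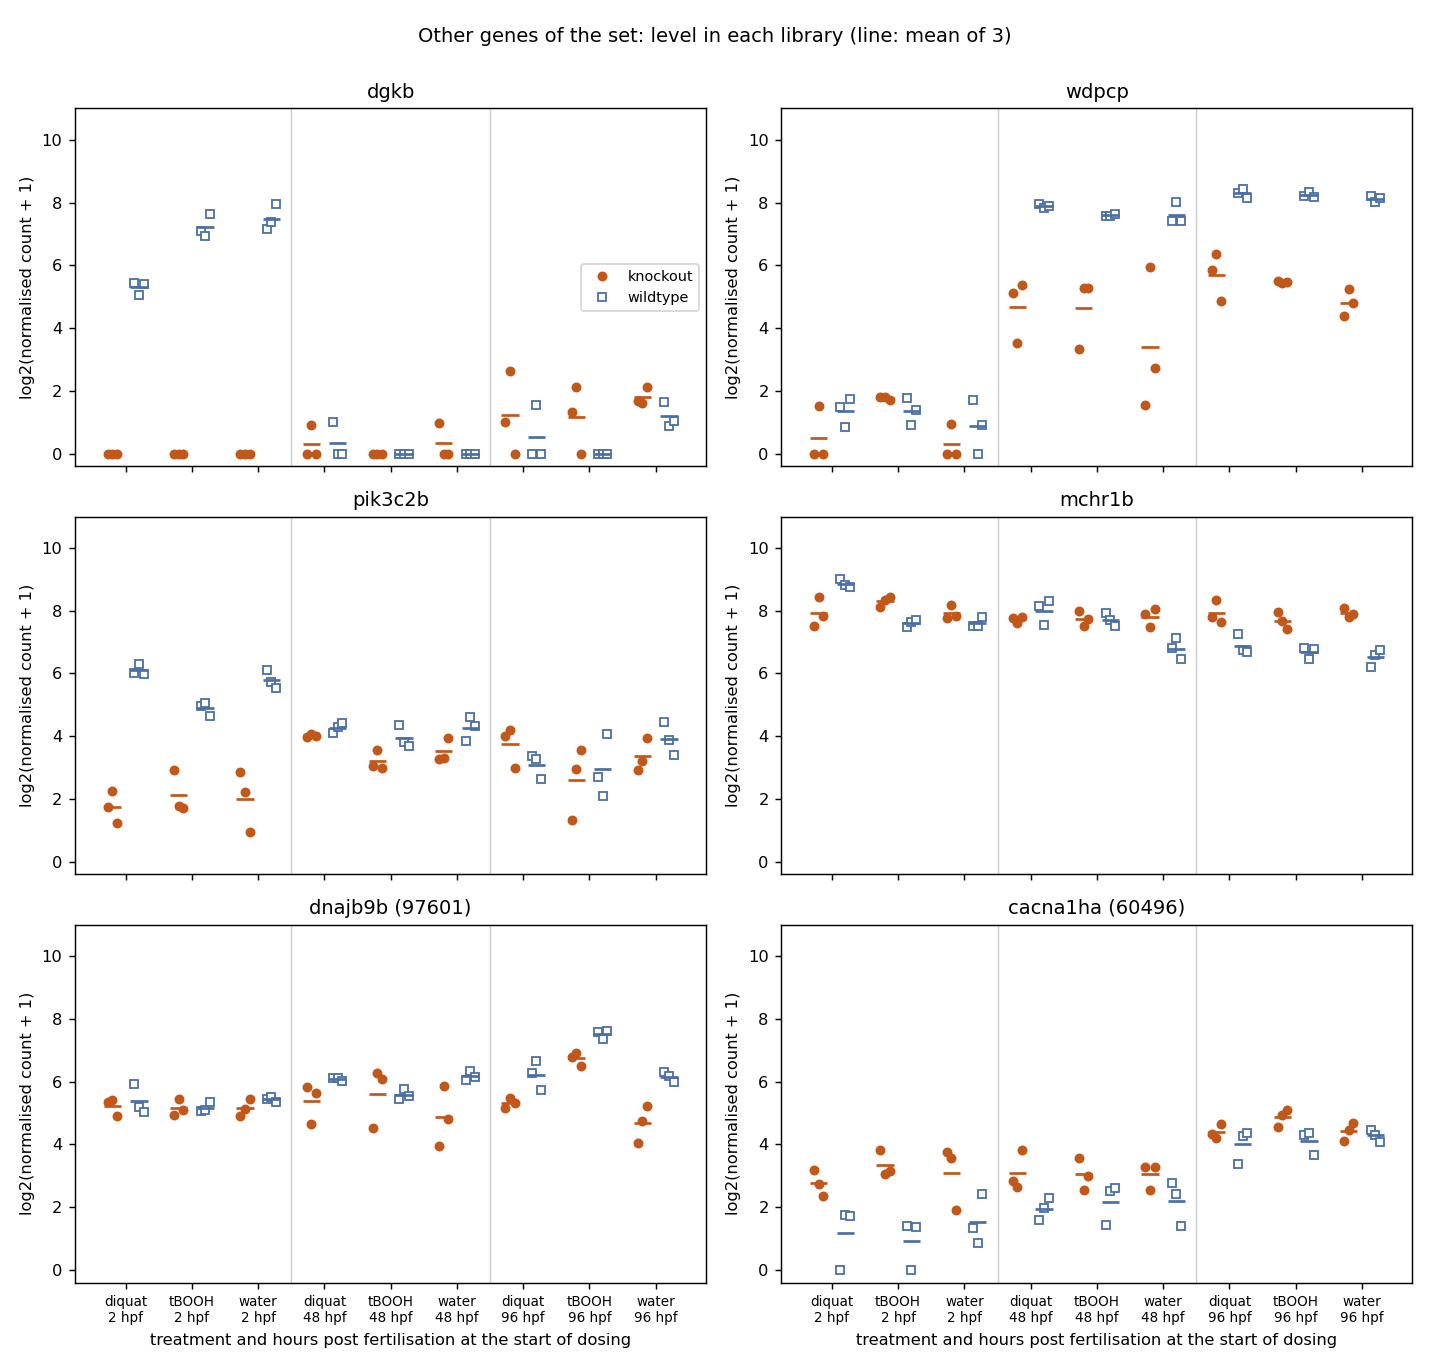
Normalised counts in each library (y axis, log2 of value + 1) of the other 6 identifiers by stage and treatment (x axis), with knockout libraries left of wildtype libraries and a bar at each group mean of 3 pools. Dgkb is at 0 in all 9 knockout libraries of the 2 hpf series, and wdpcp lies below wildtype in every knockout library of the 48 and 96 hpf series.

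Setting the oxidants against each other within a strain gave few calls in knockout embryos. At 2 hpf none of the 10 tested identifiers was called by limma in knockout, where 1.30% of all genes were called, and 2 of the 10, dnajb9b and mchr1b, had an unadjusted p under 0.05. By edgeR and by DESeq2 the count was also 0. In wildtype 3 of 10 were called at 2 hpf, against 5.73% of all genes. Dgkb was higher with tBOOH, at 137, 122 and 199.6, against 42.5, 32.0 and 41.8 with diquat (log2 difference 1.93 ± 0.32, adjusted p = 0.000446). Dnajb9b was higher with tBOOH, at 15.5, 14.8 and 12.9, against 7.09, 2.40 and 1.55 with diquat (1.90 ± 0.28, adjusted p = 0.000108). Mchr1b was lower with tBOOH, at 177, 198 and 209, against 513, 450.3 and 432 with diquat (-1.25 ± 0.18, adjusted p = 8.69e-05). For all 3 genes the diquat pools of wildtype overlapped neither its tBOOH nor its water pools. At 48 hpf none of 9 was called in either strain by limma, edgeR or DESeq2 (unadjusted p under 0.05 for 1 in knockout and 0 in wildtype), where 0.154% of genes were called in knockout (15 genes) and 0.0308% in wildtype (3 genes). At 96 hpf dnajb9b ENSDARG00000097601 was higher with tBOOH in knockout (1.43 ± 0.25, adjusted p = 0.000217; 8.18% of genes called) and in wildtype (1.30 ± 0.25, adjusted p = 0.00344; 1.68% of genes called), the wildtype call ending without wildtype diquat replicate 3 (adjusted p = 0.0541). CFAP70 was the other wildtype call at 96 hpf (1.26 ± 0.31, adjusted p = 0.0278), on 6 reads with tBOOH and 1 with diquat, and ended in 7 of 12 alternatives, including a pseudocount of 5 (0.412), edgeR (0.349) and DESeq2 (0.583), and without wildtype diquat replicate 1 or 2 or wildtype tBOOH replicate 1 or 2 (up to 0.171).

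The strain difference itself was then set against the oxidant, a comparison added after the values had been seen. At 2 hpf 4 of 10 identifiers differed between tBOOH and diquat in their strain difference, against 14.3% of all genes. Mchr1b had the positive one (1.64 ± 0.25, adjusted p = 0.000267), its knockout being above wildtype under tBOOH and below it under diquat. For dnajb9b the strain difference was smaller under tBOOH than under diquat (-2.51 ± 0.39, adjusted p = 0.000281). Its wildtype pools alone differed by 1.90 between the oxidants, on 52 reads with tBOOH and 13 with diquat, and knockout gave no call. The strain difference of cacna1ha was likewise smaller under tBOOH (-1.16 ± 0.36, adjusted p = 0.0315). There 9 of 19 alternatives lost the call with adjusted p of 0.0589 to 0.125, among them single libraries left out. Those libraries were knockout diquat replicate 3, wildtype diquat replicates 1 and 2, knockout tBOOH replicates 1 and 2 and wildtype tBOOH replicate 2. For dgkb, with no knockout read, the value of -1.93 ± 0.46 repeats the wildtype difference between the oxidants, and edgeR and DESeq2 did not call it (adjusted p = 0.9998 and 0.444). At 48 hpf no gene of the table was called by limma (0% of 9725, with 404 at an unadjusted p under 0.05), and at 96 hpf none of the 10 was (2 at an unadjusted p under 0.05; 0 also by edgeR and DESeq2), where 0.0962% of genes were. EdgeR and DESeq2 called 2 of the 10 at 2 hpf. Without the 4 libraries 68 genes of the table were called at 48 hpf, none of them in the set.

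**Figure D4:**
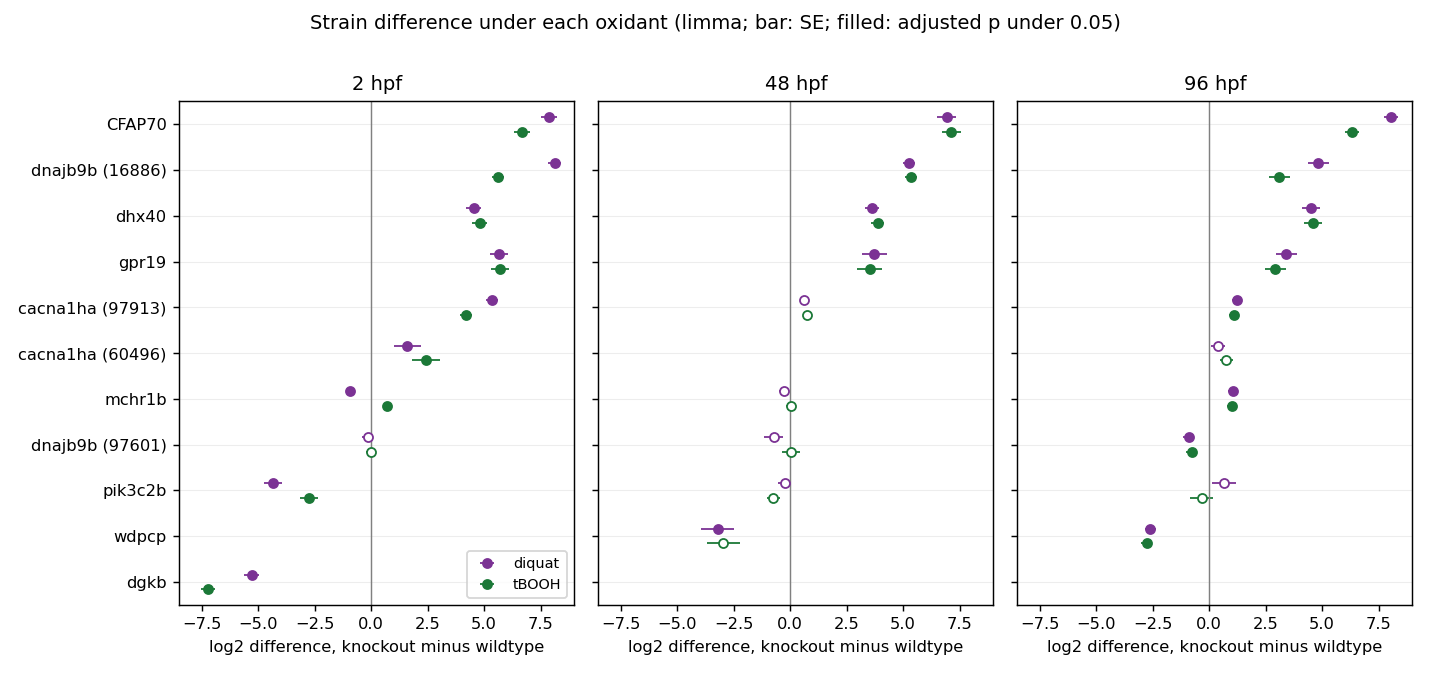
Log2 difference of knockout minus wildtype pools with its standard error (x axis, log2 of value + 1) under diquat and tBOOH for the 11 identifiers (y axis), with 1 panel each for 2, 48 and 96 hpf. Called differences are filled and untested ones left out. CFAP70, dnajb9b, dhx40 and gpr19 lie right of 0 throughout, and mchr1b lies left of 0 under diquat and right of 0 under tBOOH at 2 hpf.

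Between the stages, the mean strain difference over both oxidants was compared in a fit of all 54 libraries and 13205 genes. From 2 to 48 hpf 6 of the 11 identifiers were called, against 11.4% of all genes. Wdpcp, with few reads in either strain at 2 hpf, gained a difference in the lower direction (-2.88 ± 0.55, adjusted p = 0.000222; 0.226 by edgeR). Pik3c2b, with few knockout reads at 2 hpf, became less low in knockout (3.05 ± 0.44, adjusted p = 1.75e-06). Cacna1ha lost most of its higher level in knockout (-4.07 ± 0.24, adjusted p = 8.97e-19). Dnajb9b (-1.54 ± 0.40, adjusted p = 0.00675; 0.159 by edgeR and 0.0801 by DESeq2) and gpr19 (-2.07 ± 0.46, adjusted p = 0.00161) kept a higher level in knockout that was smaller at 48 hpf. Dgkb was called too (adjusted p = 4.39e-15; 0.9998 by edgeR), with no knockout read at 2 hpf and almost no read in either strain at 48 hpf, so its size depends on the added count. From 48 to 96 hpf 2 were called, against 2.95% of genes: mchr1b gained a difference (1.14 ± 0.21, adjusted p = 0.000383) and that of dnajb9b became smaller (-1.35 ± 0.40, adjusted p = 0.049). The dnajb9b call was lost in 24 of 32 alternatives, with adjusted p of up to 0.124 and of 0.0819 without the 4 libraries of 48 hpf, whereas mchr1b stood at 1.17 without them (adjusted p = 0.000209).

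Genes next to the 9 on the chromosomes were read from the same fits, as the 3 nearest measured genes on each side in the RefSeq annotation of GRCz12tu, which gave 54 neighbours. The 9 were placed there by symbol. Which identifier of dnajb9b or of cacna1ha the annotated gene stands for was not tested. At 48 hpf 4 of 29 tested neighbours were called under each oxidant, or 13.8%, against 1.13% of all genes under diquat and 0.967% under tBOOH. Without the 4 libraries that stood apart 4 of 29 were called under diquat, against 1.69% of all genes, and 3 of 29 under tBOOH, against 2.30%. At 2 hpf the shares were 34.6% under diquat and 23.1% under tBOOH, against 45.0% and 14.2% of all genes, and at 96 hpf 23.5% and 20.6%, against 14.1% and 20.7%. Of these neighbours, ccnf, mybpc1, avpr2l, apaf1 and mdh1ab were called in 3 or more of the 6 comparisons. At 48 hpf mybpc1 and avpr2l passed the filter only through knockout libraries, and mdh1ab only through wildtype libraries. Mybpc1, avpr2l and apaf1 at 2 hpf and mdh1ab at 96 hpf passed so too. Such genes had to differ, so the neighbour counts and their p-values are a description and give no separate support. The first measured gene after CFAP70, ccnf (cyclin F), was higher in knockout in all 6, by 1.88 ± 0.24, 2.74 ± 0.30 and 4.27 ± 0.48 at 2, 48 and 96 hpf under diquat and by 1.18 ± 0.24, 2.36 ± 0.30 and 2.46 ± 0.48 under tBOOH, on the log2 scale. At 96 hpf under diquat it had 323 to 524 in knockout and 4.84 to 72.7 in wildtype pools.

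Beside dnajb9b, mybpc1, a myosin-binding protein of slow muscle, had 163 to 249 in knockout and 0 to 0.773 in wildtype pools at 2 hpf under diquat, and was called higher under diquat and tBOOH at 2 hpf and at 48 hpf (3.13 ± 0.35 and 2.77 ± 0.35). At 96 hpf it was not called (0.39 ± 0.27 and -0.45 ± 0.27). Avpr2l, a vasopressin receptor gene, had 78.5 to 94.6 in knockout and 0 to 0.886 in wildtype pools at 2 hpf under diquat and was called higher under both oxidants at 2 and 48 hpf (adjusted p = 0.0016 or less), the 48 hpf tBOOH call ending without the 4 libraries (2.92 ± 0.86, adjusted p = 0.0736). Apaf1, the core of the apoptosome, which overlaps dnajb9b in that annotation, was higher at 2 hpf under diquat and tBOOH (2.58 ± 0.28 and 2.24 ± 0.28) and at 96 hpf under diquat (1.25 ± 0.36). All 3 neighbours were higher in knockout, as dnajb9b was, in the 2 hpf series. Mdh1ab, a malate dehydrogenase gene that overlaps wdpcp, was lower in knockout at 48 hpf (-2.54 ± 0.36 under diquat and -2.35 ± 0.36 under tBOOH) and at 96 hpf (-1.47 ± 0.41 and -2.49 ± 0.41). At 48 hpf it had 1.77 to 6.11 in knockout and 21 to 31.3 in wildtype pools, water included. The 3 lowest knockout values, 1.77, 2.73 and 2.92, were of diquat replicate 2, tBOOH replicate 1 and water replicate 1, which all stood apart, whereas the remaining such library had 5.60. In that annotation wdpcp also overlaps ugp2b, cacna1ha overlaps b9d1 and CFAP70 overlaps 1 other protein-coding gene. Dgkb and pik3c2b each overlap 1 gene that is not protein-coding. The library kit keeps strand, but the strand setting of the read counting is not given in the sources used here. Reads of overlapping genes, CFAP70 and cacna1ha included, can therefore not be told apart.

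**Figure D5:**
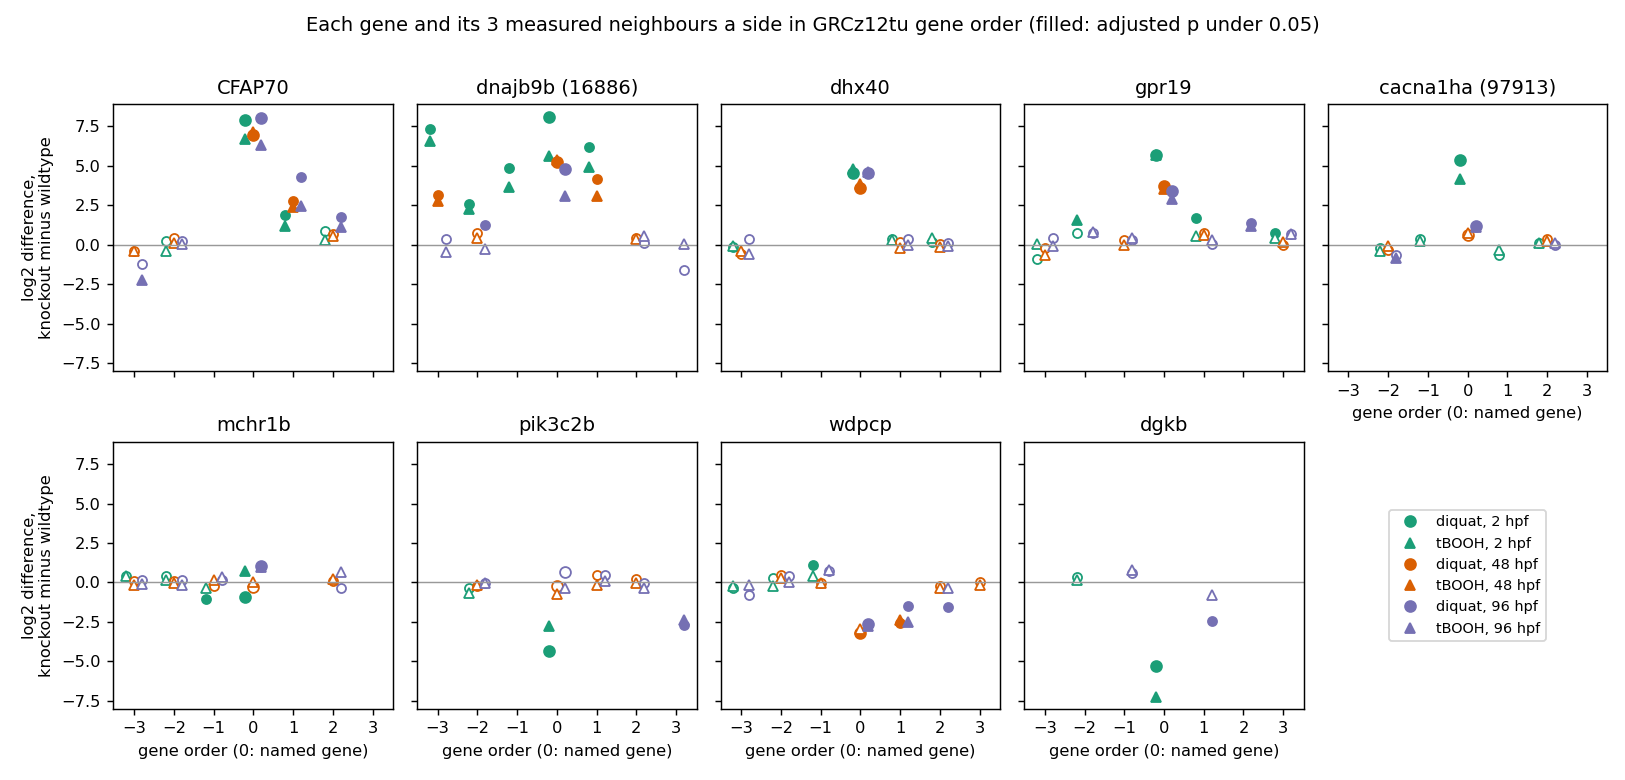
Log2 difference of knockout minus wildtype pools (y axis, log2 of value + 1) of each gene and its 3 nearest measured genes on either side, in order along the chromosome (x axis, rank and not distance), under diquat and tBOOH. Ccnf beside CFAP70, mybpc1 and avpr2l beside dnajb9b and mdh1ab beside wdpcp lie on the same side of 0 as the gene they neighbour at 48 hpf. Genes were placed by symbol, and which identifier of dnajb9b or cacna1ha lies there was not tested.

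None of the 9 genes shares a chromosome with nfe2 in that annotation. Of the pairs among them, 5 share a chromosome with each other, with 316 to 666 protein-coding genes between them, so none of the 9 is a near neighbour of another. Over the 18 group means, CFAP70, dnajb9b, dhx40 and gpr19 had Pearson correlations of 0.944 to 0.971 with each other on the log2 scale, and all 4 were picked for a strain difference, which enters these values. Among 13204 genes, wdpcp was most like mdh1ab (r = 0.986) and dgkb most like pde11al (r = 0.969), dnajb9b most like si:dkey-257i7.5 (0.985) and slc35f4 (0.975), and CFAP70 most like BX004816.2 (0.972) and dhx40 (0.971). Gpr19 was most like slc35f4 (0.975), pik3c2b most like sec31a (0.918) and cacna1ha most like lrfn4b (0.926). The pattern least matched was that of mchr1b, whose closest genes were zgc:66448 and nusap1 (0.775 each), and the second dnajb9b identifier had grinab (0.893) and fbxo34 (0.887). By Spearman rank correlation in place of Pearson some of these genes ranked much lower. Mdh1ab ranked 117 for wdpcp, BX004816.2 and dhx40 ranked 99 and 261 for CFAP70, and zgc:66448 ranked 884 for mchr1b. Lrfn4b still ranked 1 for cacna1ha, as did grinab for the second dnajb9b identifier. These are descriptions over 18 groups of the same libraries and carry no test.

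Beside nfe2, genes of the cap'n'collar family and its partners gave 1 to 2 calls a comparison where any passed. Of 6 tested at 2 hpf, nfe2 (1.69 ± 0.47) and the small Maf gene maff (1.60 ± 0.37) were higher in knockout under diquat, none was called under tBOOH, and none of 6 at 48 hpf. The 2 hpf diquat count is 33.3% of the list, against 45.0% of all genes. Of 9 at 96 hpf, bach1b, a repressor of the same targets, was lower under diquat (-1.28 ± 0.33) and tBOOH (-1.16 ± 0.33), and nfe2l2a, which encodes the oxidant-responsive factor Nrf2, was lower under tBOOH (-0.60 ± 0.20). These are 11.1% and 22.2% of the list under diquat and tBOOH, against 14.1% and 20.7% of all genes.

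Over the 9 lists of relatives, 80 entries were tested at 2 hpf, of which 26 were higher and 14 lower under diquat (50% against 45.0% of all genes), and 10 higher and none lower under tBOOH (12.5% against 14.2%). Of 107 tested at 48 hpf 1 was called under each oxidant (0.935% against 1.13% and 0.967% of all genes), with 12 and 9 at an unadjusted p under 0.05, and without the 4 libraries that stood apart dgkaa (-1.50 ± 0.37, diquat), inpp4b (0.76 ± 0.20, tBOOH) and nfe2l2a (1.13 ± 0.27, tBOOH) were called beside ern1. Of 136 at 96 hpf 12 were higher and 6 lower under diquat (13.2% against 14.1%) and 11 higher and 9 lower under tBOOH (14.7% against 20.7%). List medians at 2 hpf under diquat ran from -0.62 for the helicases to 0.75 for the hormone system and orphan receptors among lists with more than 1 tested gene, where the median of all genes was 0.01.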

How the data were processed

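RNA of 54 pools of whole embryos was sequenced as 50 bp reads from a strand-keeping library kit, per the labels' protocols. The submitters' processing notes name FastQC 0.11.4, TopHat2 2.0.14, Bowtie2 2.2.5, SAMtools 0.1.19, HTSeq, DESeq2 1.10.1, R 3.2.3 and the build GRCz10; for HTSeq neither version nor strand setting is given in the sources used here. The authors deposited 1 table of signal values per gene, which are read counts divided by a size factor for each library. Whole reads were recovered from it within a tolerance of 0.01 in all 54 columns, though in 3 the step lies near 1 read, where the check says little; every library then held 527073 to 1044504 reads, and counting error dominates below about 10 reads.

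The genes, the lists of relatives and the tests were chosen with earlier results of these data known, and 1 gene of the set is not reported here. Genes reaching 10 in 3 or more libraries were tested with limma 3.58.1 in R 4.3.3 on log2(value + 1), with a mean trend, over the 18 libraries of a stage, or over all 54 for differences between stages. P-values were adjusted by Benjamini-Hochberg over all tested genes, and 0.05 was the threshold. Water libraries shared the estimate of the spread and entered no contrast in which the genes of the set were tested. The same fits gave the water shares over all genes and the water ranks, as background and description only. Log2 differences understate the change of low genes because of the added 1. Where a group had no read, a fold was set against a floor of 3 reads over the group, which covers counting error only. Every identifier of the 9 symbols was named, with up to 3 called relatives per list and comparison, neighbours called in 3 or more of 6 comparisons and the 2 genes most like each by Pearson correlation; nfe2 and paralogs were added. Names and gene order came from RefSeq (GRCz12tu), whose coordinates were not used. The fits were tested on simulated data. Alternatives were a pseudocount of 5, no filter, TMM scaling, a replicate block, the compared groups alone, edgeR 4.0.16 and DESeq2 1.42.0 on the recovered reads, each replicate left out and, chosen after seeing the data, 4 knockout libraries of 48 hpf left out. Replicate numbers did not pair the pools at 48 and 96 hpf, and a weak pairing at 2 hpf was not excluded.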

Additional observations from a re-analysis of the deposited data

Results flagged for a closer look

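The strain difference under the oxidants, as log2 of knockout over wildtype, changed between the 2 and 48 hpf series by -1.54 for dnajb9b (ENSDARG00000016886), -2.07 for gpr19, 6.25 for dgkb, -2.88 for wdpcp, 3.05 for pik3c2b and -4.07 for cacna1ha (ENSDARG00000097913). The dgkb, gpr19, wdpcp and pik3c2b values depend on the added 1, because groups of one strain or of both held few or no reads. Between the 48 and 96 hpf series it changed by -1.35 for dnajb9b and by 1.14 for mchr1b. Both dnajb9b changes also rest on few wildtype reads, with 12 under diquat and 11 under tBOOH at 48 hpf. Neither was called by edgeR or DESeq2 (adjusted p of 0.0801 to 0.159).

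Between the oxidants, tBOOH minus diquat, the strain difference of the 2 hpf series changed by -2.51 for dnajb9b, -1.93 for dgkb, -1.16 for cacna1ha and 1.64 for mchr1b. Each of these values had an adjusted p under 0.05 by limma, in a comparison added after the values had been seen. With no knockout read, the dgkb value repeats the wildtype difference between the oxidants. EdgeR and DESeq2 did not call it (adjusted p = 0.9998 and 0.444). The cacna1ha call was lost in 9 of 19 alternatives. The dnajb9b value rests on few wildtype reads, 52 with tBOOH and 13 with diquat.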

How the results depend on the processing

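For the 11 identifiers, 76 differences were recomputed in 1176 alternatives, of which 1093 kept direction and side of the threshold, 64 kept direction but passed it no more, 5 came to pass it and 14 changed direction. Those 14 belong to 5 strain differences of -0.34 to 0.0353 on the log2 scale that were not called. With single libraries left out, dnajb9b ENSDARG00000097601 ran from -0.34 to 0.0987 under diquat and from -0.16 to 0.0945 under tBOOH at 2 hpf, and from -0.29 to 0.59 under tBOOH at 48 hpf, mchr1b from -0.0886 to 0.149 under tBOOH at 48 hpf, and pik3c2b from -0.81 to 0.30 under tBOOH at 96 hpf. For dnajb9b ENSDARG00000097601 under tBOOH at 2 hpf edgeR gave 0.0055 and DESeq2 0.00023, and without the 4 knockout libraries mchr1b gave -0.0886. Counts of called identifiers moved as follows. For tBOOH minus diquat at 96 hpf, knockout gave 3 with a pseudocount of 5 and by edgeR in place of 1, and wildtype 1 with a pseudocount of 5, the compared groups alone, edgeR and DESeq2 in place of 2. Between stages, 48 minus 2 hpf gave 3 by edgeR in place of 6, and 96 minus 48 hpf gave 1 with no filter, TMM, the replicate block, the compared groups alone, edgeR and DESeq2 in place of 2. The oxidant effect on the strain difference at 2 hpf gave 2 by edgeR and DESeq2 in place of 4. The causes were not tested.

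Leaving out single libraries gave 8 to 9 calls for the strain difference under each oxidant at 2 hpf, 4 to 5 under diquat and 4 under tBOOH at 48 hpf, and 7 to 8 under each at 96 hpf. For tBOOH minus diquat it gave 0 to 1 in knockout and 3 in wildtype at 2 hpf, 0 in both at 48 hpf and 1 to 2 in both at 96 hpf. It gave 6 for 48 minus 2 hpf, 1 to 2 for 96 minus 48 hpf, and 3 to 5, 0 and 0 to 1 for the oxidant effect on the strain difference at 2, 48 and 96 hpf.

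Same-numbered pools did not deviate together on average at 48 and 96 hpf (mean correlation -0.00964 and -0.000254). There 4 and 8 of 18 libraries correlated best with their own number. At 2 hpf the mean was 0.0377, against -0.0189 for pools of other numbers, and 11 of 18 correlated best with their own. A weak pairing at 2 hpf is therefore not excluded. The main fits carry no replicate term, and the replicate block is given as an alternative only.

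Counts over all tested genes moved by more than 1.5 times in these settings. With the compared groups alone, tBOOH minus diquat gave 49 genes in knockout in place of 101 and 789 in wildtype in place of 446 at 2 hpf, 4 in place of 15 and 56 in place of 3 at 48 hpf, and 287 in place of 935 and 682 in place of 192 at 96 hpf. The strain difference then gave 42 genes in place of 94 at 48 hpf under tBOOH and 694 in place of 1611 at 96 hpf under diquat. For tBOOH minus diquat in knockout at 2 hpf, 24 were called with no filter, 438 with the replicate block, 21 by edgeR and 44 by DESeq2, in place of 101. At 48 hpf DESeq2 gave 23 in knockout in place of 15 and 7 in wildtype in place of 3, and at 96 hpf edgeR gave 305 in wildtype in place of 192. The oxidant effect on the strain difference gave 727 with no filter in place of 1111 at 2 hpf, 1 by DESeq2 in place of 0 at 48 hpf, and 27 with a pseudocount of 5 and 18 by edgeR in place of 11 at 96 hpf. A pseudocount of 5 gave 863 in place of 390 for 96 minus 48 hpf.

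Without the 4 knockout libraries of 48 hpf, 215 genes in place of 94 were called for the strain difference under tBOOH, 111 in place of 15 and 14 in place of 3 for tBOOH minus diquat in knockout and wildtype, 68 in place of 0 for the oxidant effect on the strain difference, and 1137 in place of 390 for 96 minus 48 hpf. Leaving out single libraries gave 2921 to 3359 genes for the strain difference under diquat and 670 to 1067 under tBOOH at 2 hpf, 55 to 89 and 50 to 97 at 48 hpf, and 976 to 1869 and 1681 to 2171 at 96 hpf. These causes were not tested either. Genes under 10 normalised counts went untested, and differences resting on a few wildtype reads have sizes that depth limits.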
